A study of Sus scrofa with 15 samples.

Results

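The genes described here are NR4A1, NR4A2, NR4A3, EGR1, EGR2 and EGR3, which are 6 of the 29886 genes counted in porcine NK cells. They were chosen by name as the NR4A and EGR families, after EGR3 and NR4A2 had been seen to have higher counts in both liver NK cell populations than in blood. The values that chose EGR3 and NR4A2 are therefore the differences between liver and blood, and for these 2 genes those differences are given below as a description, with no p-value, and nothing is read from counts of called members that include them. The question put to the data was whether the other members follow the same pattern.

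NR4A1, NR4A2 and NR4A3 encode orphan nuclear receptors, and EGR1, EGR2 and EGR3 encode zinc finger transcription factors. Both families are immediate early genes: their transcripts appear soon after a lymphocyte is stimulated, without prior protein synthesis, and are usually short-lived. In T cells NR4A factors, EGR2 and EGR3 are known for limiting activation as well as for responding to it, and EGR proteins are held in check by the corepressors NAB1 and NAB2, whose genes they can induce.

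RNA came from 3 NK cell populations of the same 5 pigs, all 6 months old, and gave 15 libraries. CD8αhigh NK cells from blood are the conventional NK cells (cNK cells), CD8αhigh NK cells from liver are called conventional liver NK cells, and CD8αdim NK cells from liver are called liver-resident NK cells (lrNK cells). All were depleted of CD3+ and CD172a+ cells on magnetic columns and then sorted as CD3-CD172a- cells by their CD8α level, and cells of both liver populations came out of the same flush of the portal vein with cold saline. Blood was taken before the liver was flushed, so the tissue and the way in which cells were obtained cannot be told apart in a comparison of liver with blood, while the comparison of the liver populations shares organ, flush and animal.

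The kit used reads polyadenylated transcripts from their 3′ end, so that a longer transcript does not give more counts. Between 2003499 and 5680221 reads were counted on genes per library, with medians of 3749615 in blood, 3877028 in liver CD8αhigh and 2407859 in lrNK libraries. Levels are given as CPM, counts scaled to a common library total after TMM normalization, and a count of 0 allows a level of up to 0.528 to 1.5 CPM depending on the library. As a check of the labels, CD8A, which encodes the sorting antigen, had mean levels of 466, 490 and 43.4 CPM in blood, liver CD8αhigh and lrNK cells. The summed level of 13 NK cell markers was 5037 to 6578 CPM in blood, 5349 to 6260 CPM in liver CD8αhigh and 4448 to 7141 CPM in lrNK libraries, where 5 of the 13 were called higher and 4 lower than in blood. The summed level of 6 B cell markers was 18.4 to 135 CPM in blood, 17.7 to 52.8 CPM in liver CD8αhigh and 234 to 778 CPM in lrNK libraries, with CD79A at 0 in all 15 libraries. Of the T cell markers, CD3G averaged 865, 825 and 289 CPM in these populations, CD3D 3.78, 7.38 and 8.43 CPM, and CD3E 10.2, 9.03 and 2.12 CPM, CD6 was under 3 CPM in every library, and CD4 and CD5 were at 0 throughout. Summed markers of monocytes, hepatocytes and endothelium stayed at or under 25.6, 9.74 and 18.5 CPM, and those of platelets and red cells reached 306 CPM in blood, 55.3 CPM in liver CD8αhigh and 23.3 CPM in lrNK libraries.

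The members did not share a single pattern. NR4A2 and EGR3, by which the group was chosen, were higher in both liver populations than in blood. EGR1 and EGR2 rose in lrNK cells against blood and lay in between in liver CD8αhigh cells, where they did not pass the test. NR4A3 went the other way in lrNK cells: it fell 36.4-fold against blood and 53.7-fold against liver CD8αhigh cells, while its mean in liver CD8αhigh cells was 1.48 times that in blood, a difference that did not pass the test. NR4A1 had no count in any library. In bulk RNA, fewer cells that carry a transcript and less of the transcript per cell cannot be told apart, and this holds for every level below.

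**Figure D1:**
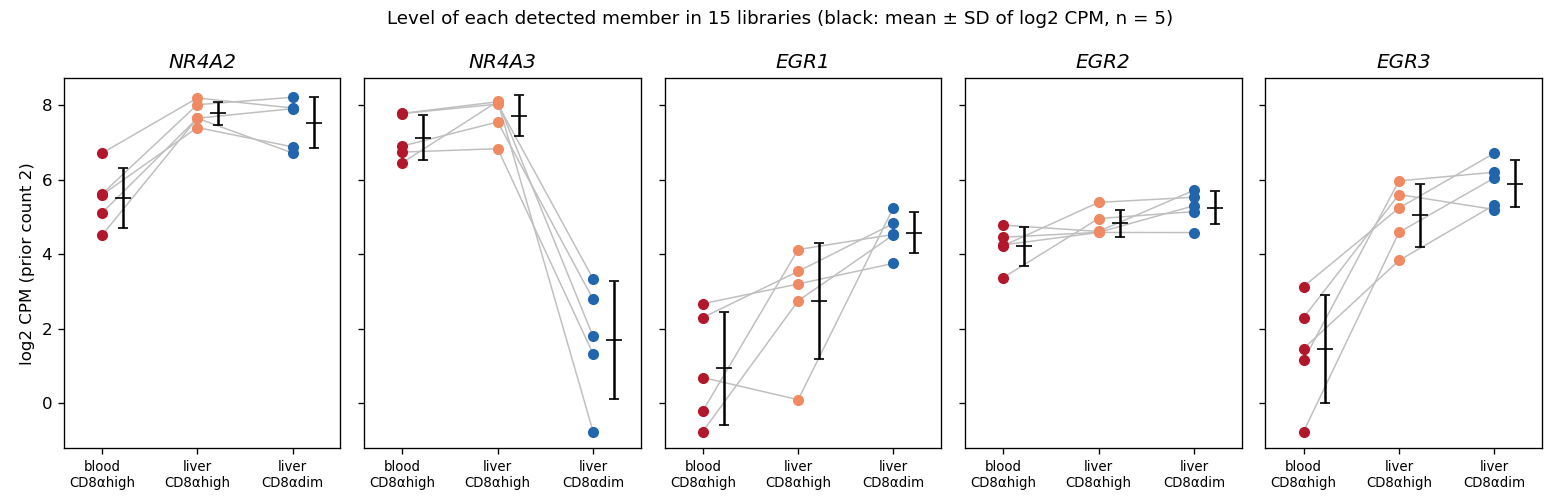
Level of the 5 members with counts in each of the 15 libraries, as log2 CPM with a prior count of 2 on the y axis, by population on the x axis; points are libraries, grey lines join the libraries of one pig, and black bars are mean ± SD (n = 5). NR4A3 drops in lrNK (liver CD8αdim) cells of all 5 pigs, from a mean of 222 CPM in liver CD8αhigh cells to 4.14 CPM, while the other 4 members have higher means in both liver populations than in blood.

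NR4A3 lies on chromosome 1 at 241569867 to 241611735 of the pig assembly Sscrofa11.1 and is protein-coding. In blood NK cells of pigs 1 to 5 it had 219, 107, 119, 87.5 and 219.7 CPM. The liver CD8αhigh cells of the same pigs had 261, 114, 187, 275 and 273 CPM. In lrNK cells it had 9.55, 1.92, 6.33, 0 and 2.87 CPM, which stands for 0 to 23 reads per library. Every lrNK library was thus below every library of the other populations, and the lrNK library of pig 4 held no NR4A3 read beside 866 reads of NR4A2.

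The means were 150.5 ± 64.0 CPM in blood, 222 ± 70.5 CPM in liver CD8αhigh and 4.14 ± 3.80 CPM in lrNK cells (SD, n = 5). With the lrNK library of pig 4 or of pig 1 left out, the fall in the mean was 29.1-fold or 54.1-fold against blood. Against liver CD8αhigh cells it was 43.0-fold or 79.8-fold. Tested with edgeR's quasi-likelihood test over all 10939 genes that passed its filter on low counts, with Benjamini-Hochberg adjustment, NR4A3 fell by 5.83 on the log2 scale in lrNK cells against liver CD8αhigh cells (SE 0.52, adjusted p = 6.82e-08, lower in 5 of 5 pigs). Against blood it fell by 5.27 (SE 0.51, adjusted p = 2.03e-07, lower in 5 of 5 pigs). Ordered by the size of the fall, NR4A3 was number 65 of 10939 genes in the first of these comparisons and number 88 in the second. Set against blood, liver CD8αhigh cells had a log2 fold change of 0.56 (SE 0.39, 95% interval -0.25 to 1.37, adjusted p = 0.9996). It was positive within each of the 5 pigs, from 0.09 to 1.64 on the scale of log2 CPM, and the ranges of these populations overlapped.

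NR4A2, a receptor of the same family, lies on chromosome 15 at 63487051 to 63506249. Its level in blood was 48.5, 47.7, 33.9, 104 and 22.2 CPM in pigs 1 to 5. It was 259, 169, 201, 293 and 201 CPM in liver CD8αhigh cells. In lrNK cells it was 297, 118, 105, 243 and 240.0 CPM. The blood library of pig 4 stood highest of its population and just under the lowest lrNK value, that of pig 3.

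Mean NR4A2 levels were 51.3 ± 31.6 CPM in blood, 224 ± 50.2 CPM in liver CD8αhigh and 200.5 ± 84.8 CPM in lrNK cells (SD, n = 5). Liver CD8αhigh cells had 4.37 times and lrNK cells 3.90 times the blood mean, with log2 fold changes of 2.13 (SE 0.34) and 1.97 (SE 0.34), which describe the choice of this gene. Both liver levels entered that choice, which favours genes that are alike in the liver populations. Within the liver NR4A2 differed by -0.16 on the log2 scale (SE 0.33, 95% interval -0.84 to 0.52, edgeR adjusted p = 0.833, higher in 2 of 5 pigs). So lrNK cells that held almost no NR4A3 transcript had a level of NR4A2 that the test did not separate from that of liver CD8αhigh cells.

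The share of NR4A3 among the reads of the NR4A genes needs no scaling between libraries. With NR4A1 at 0, it gives the level of NR4A3 relative to NR4A2 and not the level of either gene. Shares in blood beside those in liver include the values that chose NR4A2, so they are a description. Per library it ran from 45.6% to 90.8% in blood (median 77.9%), from 40.2% to 57.6% in liver CD8αhigh cells (median 48.4%) and from 0% to 5.70% in lrNK cells (median 1.61%). The blood library of pig 4, at 45.6% (exact 95% binomial interval 41.3% to 49.9%), was the one that reached into the range of the liver CD8αhigh libraries. In lrNK cells of pig 4 the share was 0 of 866 reads, which allows up to 0.346%. The log2 ratio of NR4A3 to NR4A2 in lrNK cells differed by -6.04 from that in liver CD8αhigh cells (two-sided exact permutation test over libraries, p = 0.00794, the smallest p that 5 against 5 libraries allow). Intervals and limits of this kind cover counting error only. The summed level of the NR4A genes was 153 to 268 CPM in blood, 282 to 568 CPM in liver CD8αhigh and 111 to 307 CPM in lrNK libraries, so the sums of lrNK libraries ran from below to above those of blood.

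**Figure D2:**
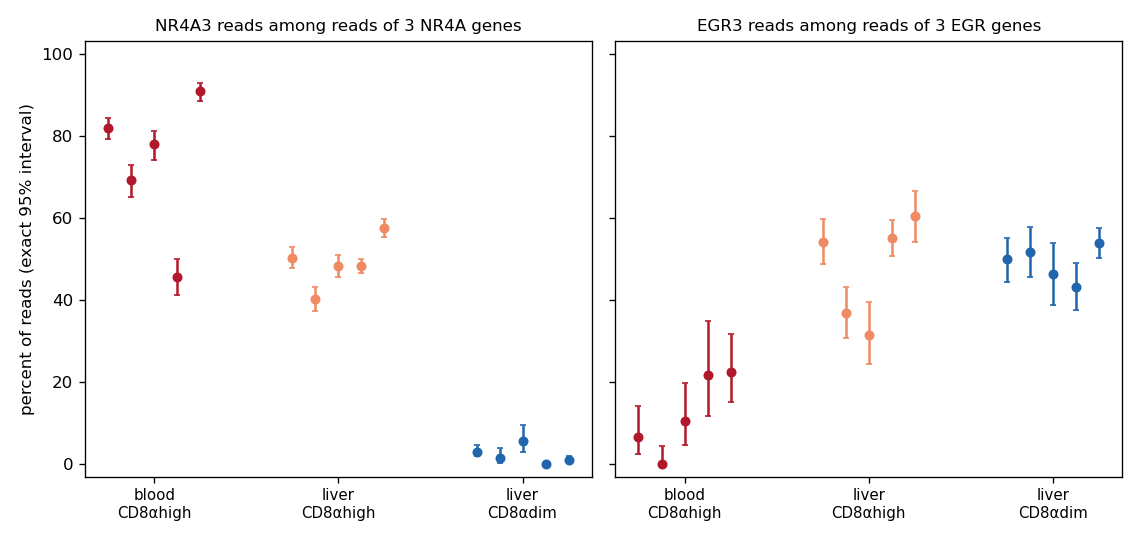
Share of NR4A3 among reads of the NR4A genes (left) and of EGR3 among reads of the EGR genes (right), in percent, in each library by population; points are libraries in the order of pigs 1 to 5 and bars are exact 95% binomial intervals. NR4A3 makes up at most 5.70% of NR4A reads in lrNK libraries against at least 40.2% elsewhere, and EGR3 makes up 43.1% to 53.8% of EGR reads in lrNK libraries against at most 22.6% in blood.

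NR4A1, the remaining NR4A gene, had 0 counts in all 15 libraries. It is placed on chromosome 5 at 17403088 to 17407918, where the annotation table of the same assembly lists it as a pseudogene with 0 transcripts. Such entries often stay empty in these counts: 2077 of 3011 pseudogenes (69.0%) were at 0 in all libraries, against 6135 of 20642 protein-coding genes (29.7%). The zeros therefore describe this entry of the count table, and whether porcine NK cells transcribe NR4A1 cannot be read from them.

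EGR1, the member of its family with the widest use as a marker of recent stimulation, lies on chromosome 2 at 140440829 to 140445302. In blood of pigs 1 to 5 it had 4.34, 0.274, 0, 5.78 and 1.02 CPM, from 0 to 16 reads per library. In liver CD8αhigh cells it had 11.05, 16.9, 6.13, 8.62 and 0.478 CPM, and the last value stands for 2 reads. In lrNK cells it had 27.8, 22.6, 22.4, 12.9 and 37.6 CPM, from 46 to 144 reads. The lrNK and blood libraries did not overlap, and the liver CD8αhigh libraries spread over the gap between them and into both groups.

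Mean EGR1 levels were 2.28 ± 2.61 CPM in blood, 8.63 ± 6.05 CPM in liver CD8αhigh and 24.7 ± 9.01 CPM in lrNK cells (SD, n = 5). EGR1 rose in lrNK cells against blood, with 10.8 times the mean and a log2 fold change of 3.44 (SE 0.80, edgeR adjusted p = 0.00382, higher in 5 of 5 pigs), and 17.5 times without the blood library of pig 4. Liver CD8αhigh cells had 3.78 times the blood mean, and 6.13 times without the blood library of pig 4. The log2 fold change of liver CD8αhigh cells from blood was 1.93 (SE 0.78, 95% interval 0.31 to 3.54, adjusted p = 0.839, higher in 4 of 5 pigs), with pig 5 the exception. Between the liver populations it was 1.52 (SE 0.72, 95% interval 0.03 to 3.01, adjusted p = 0.190, higher in lrNK cells of 5 of 5 pigs). At counts this low the order blood, liver CD8αhigh, lrNK is one of means, and only its ends were separated by the test.

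EGR2 lies on chromosome 14 at 66280665 to 66291308. Its level in blood was 18.2, 21.4, 18.5, 9.76 and 27.0 CPM in pigs 1 to 5. In liver CD8αhigh cells it was 41.4, 23.5, 23.4, 30.5 and 23.9 CPM, and in lrNK cells 45.7, 38.9, 23.4, 34.8 and 52.0 CPM. EGR2 was thus counted in every blood library, with 27 to 79 reads, and the populations overlapped in each comparison.

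Its means were 18.9 ± 6.23 CPM in blood, 28.5 ± 7.81 CPM in liver CD8αhigh and 38.9 ± 10.9 CPM in lrNK cells (SD, n = 5). EGR2 rose in lrNK cells against blood by 1.04 on the log2 scale (SE 0.29, edgeR adjusted p = 0.0152, higher in 5 of 5 pigs), the smallest difference of the members that passed. This call was lost when all libraries of pig 1 (adjusted p = 0.0642) or of pig 4 (adjusted p = 0.0589) were left out. Against blood, liver CD8αhigh cells differed by 0.59 (SE 0.29, 95% interval -0.02 to 1.19, adjusted p = 0.9996, higher in 4 of 5 pigs). Within the liver, lrNK cells differed by 0.45 (SE 0.29, 95% interval -0.14 to 1.05, adjusted p = 0.359, higher in 4 of 5 pigs). The EGR2 interval shares 1300 bases with ADO, a thiol dioxygenase gene, and the strand setting of the counting is not stated. ADO itself had log2 fold changes of 0.62, 0.79 and 0.16 in these comparisons with adjusted p of 0.9996, 0.0919 and 0.820, and reads of the shared stretch cannot be assigned from the counts.

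EGR3, which is also on chromosome 14 but far from EGR2, at 6943184 to 6948507, had 1.63, 0, 2.17, 4.34 and 8.19 CPM in blood of pigs 1 to 5, from 0 to 24 reads. Its liver CD8αhigh levels were 62.2, 23.5, 13.7, 48.1 and 37.3 CPM. In lrNK cells it had 73.1, 65.8, 39.5, 36.2 and 104 CPM. Pig 5 held the highest EGR3 level of both the blood and the lrNK libraries.

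Mean EGR3 levels were 3.26 ± 3.16 CPM in blood, 36.9 ± 19.3 CPM in liver CD8αhigh and 63.8 ± 27.8 CPM in lrNK cells (SD, n = 5). The liver means were 11.3 times and 19.5 times the blood mean, with log2 fold changes of 3.54 (SE 0.58) and 4.33 (SE 0.59), values that chose this gene. Without the blood library of pig 5, the highest, the ratios of means were 18.2 and 31.4. Both liver levels entered the choice of EGR3, so the comparison within the liver is not independent of it. There EGR3 differed by 0.79 on the log2 scale (SE 0.49, 95% interval -0.22 to 1.81, edgeR adjusted p = 0.342), with a higher level in lrNK cells of 4 of 5 pigs. The interval leaves room for a difference between liver populations of up to 1.81 on the log2 scale.

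Within the EGR family the make-up of the reads moved from EGR2 in blood towards EGR3 in liver. EGR2 held 49.1% to 98.7% of EGR reads in blood libraries (median 75.3%), 35% to 54.2% in liver CD8αhigh (median 36.8%) and 26.8% to 41.5% in lrNK libraries (median 30.6%). EGR3 held 0% to 22.6% in blood (median 10.5%), 31.6% to 60.5% in liver CD8αhigh (median 54.2%) and 43.1% to 53.8% in lrNK libraries (median 49.9%). These shares rest on few reads in blood, 55 to 106 per library, and they include the values that chose EGR3, so they are a description. The summed level of the EGR genes was 19.9 to 36.2 CPM in blood, 43.2 to 115 CPM in liver CD8αhigh and 84.0 to 194 CPM in lrNK libraries.

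**Figure D3:**
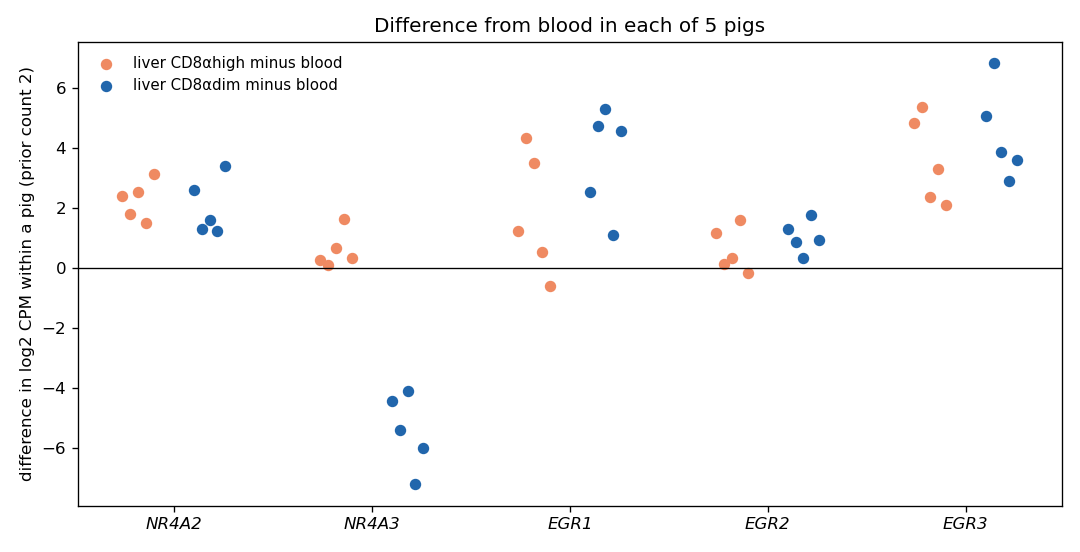
Difference in log2 CPM (prior count 2) between each liver population and blood of the same pig, for the 5 members with counts; each point is a pig, the horizontal line marks no difference, and both series share the blood libraries. NR4A3 is the member whose lrNK points, from -7.22 to -4.12, lie below 0, while its liver CD8αhigh points run from 0.09 to 1.64.

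Counted against the whole table, the members read as follows. In liver CD8αhigh cells against blood, 0.0640% of the 10939 genes tested were called at an adjusted p under 0.05, 0.0457% higher and 0.0183% lower. Of the 5 members tested 2 were called, and these were the ones chosen for it, so nothing is read from that count. Of the 3 tested members not chosen on this difference, edgeR called 0, DESeq2 called 0, and EGR1 alone had an unadjusted p under 0.05 in edgeR.

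In lrNK cells against blood, 18.2% of all genes tested were called, 8.62% higher and 9.60% lower. EGR1 and EGR2 rose and NR4A3 fell, so each tested member not chosen on this difference passed, in different directions. NR4A1, without counts, could not be tested. In lrNK cells against liver CD8αhigh cells, 14.6% of all genes tested were called, 6.96% higher and 7.68% lower. There 1 of 5 members was called, NR4A3, which was lower. Both comparisons with blood share the blood libraries, and both comparisons with lrNK cells share the lrNK libraries, so they are not independent of each other.

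Markers of B cells moved with the lrNK population. In lrNK cells of pigs 1 to 5 the summed level of the B cell markers was 512.5, 764, 234, 778 and 299 CPM. The levels of the members in the same libraries are given above. All 5 B cell markers that could be tested rose in lrNK cells, against blood (2 without pig 2) and against liver CD8αhigh cells, and their part in the levels of the members was not tested. Over all genes tested, 8.62% and 6.96% were called higher in these comparisons. In the comparison of liver CD8αhigh cells with blood, 0 of these 5 markers were called by edgeR or DESeq2 (1 lower without the liver CD8αhigh library of pig 1), and 2 were lower at an unadjusted p under 0.05.

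Next to the members stand their partners. NAB2, the corepressor gene that EGR factors induce, averaged 7.17 ± 5.08 CPM in blood, 11.5 ± 3.13 CPM in liver CD8αhigh and 24.8 ± 15.4 CPM in lrNK cells (SD, n = 5). It rose in lrNK cells against blood by 1.79 on the log2 scale (SE 0.51, edgeR adjusted p = 0.0166, higher in 5 of 5 pigs), a call that was lost without pig 4 (adjusted p = 0.119) and without pig 3. NAB1, its relative, averaged 29.0 ± 5.10, 32.2 ± 9.55 and 47.5 ± 9.90 CPM. Its log2 fold change in lrNK cells against blood was 0.71 (SE 0.25, adjusted p = 0.0529), and with the pig as a block the adjusted p was 0.0469. NAB1 was called higher there in 7 of 28 alternative settings, and DESeq2 called both NAB1 and NAB2 higher. NAB1 lies wholly within the interval of NEMP2, and NAB2 shares 69 bases with STAT6. EGR4, the family member left out above, had 0 counts in all libraries. In the other comparisons 0 of the 2 partners tested were called by edgeR or by DESeq2. At an unadjusted p under 0.05, 0 passed in liver CD8αhigh cells against blood and both were higher in lrNK than in liver CD8αhigh cells.

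RXRA encodes a retinoid X receptor, with which NR4A1 and NR4A2 can pair on DNA. It averaged 134 ± 12.8 CPM in blood, 117 ± 17.2 CPM in liver CD8αhigh and 45.4 ± 17.97 CPM in lrNK cells (SD, n = 5). RXRA fell in lrNK cells by 1.56 on the log2 scale against blood (SE 0.22, edgeR adjusted p = 3.09e-05) and by 1.37 against liver CD8αhigh cells (SE 0.22, adjusted p = 1.59e-04), and was lower in 5 of 5 pigs in both. RXRB, with 21.2, 15.1 and 18.3 CPM in these populations, did not pass the test in any comparison, and RXRG was at 0 throughout.

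Of 13 genes for factors known to act upstream of immediate early genes, lrNK cells had 2 higher and 1 lower than blood, and the same numbers against liver CD8αhigh cells. Over all genes tested, 8.62% were called higher and 9.60% lower against blood, and 6.96% and 7.68% against liver CD8αhigh cells. Nothing is therefore read from these counts about the list, and the called genes are given as single values. MEF2C, of the MEF2 family that binds the NR4A1 promoter in T cells, and also a B cell transcription factor, rose from 2.87 to 53.2 CPM (log2 fold change 4.17, SE 0.80, adjusted p = 7.18e-04 against blood). HDAC7, a class IIa deacetylase that binds MEF2 proteins and restrains them, rose by 0.93 on the log2 scale (SE 0.22, adjusted p = 0.00392). NFATC2, a calcium-dependent activator of NR4A and EGR genes, fell from 188 to 65.2 CPM (log2 fold change -1.53, SE 0.28, adjusted p = 5.19e-04). SRF, the serum response factor that drives EGR1, was measured at 101.8, 91.6 and 97.8 CPM in blood, liver CD8αhigh and lrNK cells. The median log2 fold change of the 13 genes in lrNK cells against blood was -0.09, beside 0.01 over all genes tested. For liver CD8αhigh cells against blood, 0 of the 13 were called by edgeR or DESeq2, and 0 had an unadjusted p under 0.05.

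The other immediate early genes give a setting for the members. AP-1 factors, the FOS and JUN families, are the classical partners of EGR1 in an acute response. FOS itself had 0 counts in all blood and lrNK libraries and at most 4 in a liver CD8αhigh library, so it was not tested. Of 9 AP-1 genes 6 passed the filter, and in lrNK cells against blood 2 of them fell and 0 rose by edgeR and by DESeq2, with 1 higher and 3 lower at an unadjusted p under 0.05. Over all genes tested 9.60% were called lower. JUNB fell by 1.04 on the log2 scale (SE 0.22, adjusted p = 0.00161) and FOSL2 by 0.93 (SE 0.23, adjusted p = 0.00620, and 0.0551 without pig 5). Their median was -0.48 against 0.01 over all genes. Against blood, 0 of the 6 in liver CD8αhigh cells were called by either tool or had an unadjusted p under 0.05, and the median was 0.14 beside -0.02 over all genes.

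Of 21 further immediate early genes 18 passed the filter, and in lrNK cells against blood 6 rose and 4 fell (5 and 1 without pig 4), beside 8.62% called higher and 9.60% lower over all genes. Among those that rose, DUSP5, a nuclear phosphatase that acts on ERK, went from 8.02 to 63.5 CPM (log2 fold change 2.98, SE 0.31, adjusted p = 5.28e-07). DUSP4, a phosphatase of the same family, went from 38.3 to 218 CPM (2.52, SE 0.66, adjusted p = 0.00904), a call lost without pig 1 (adjusted p = 0.0774) and without pig 5. KLF10, a zinc finger repressor, had a log2 fold change of 2.06 (SE 0.63, adjusted p = 0.0259), a call lost in 9 of 28 alternative settings, among them the block by pig (adjusted p = 0.0547) and leaving out pig 1, pig 2 (adjusted p = 0.143) or pig 4. IER3, an early survival gene, was the one with the largest fall, from 8.93 to 1.11 CPM (-3.05, SE 0.84, adjusted p = 0.0137), and lost its call without pig 5 (adjusted p = 0.0810) and without pig 4. The median of the 18 was 0.56 in liver CD8αhigh cells against blood and 0.52 in lrNK cells against blood, beside -0.02 and 0.01 over all genes. For liver CD8αhigh cells against blood edgeR called 0 of the 18 and DESeq2 called 1, with 3 higher and 1 lower at an unadjusted p under 0.05.

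**Figure D4:**
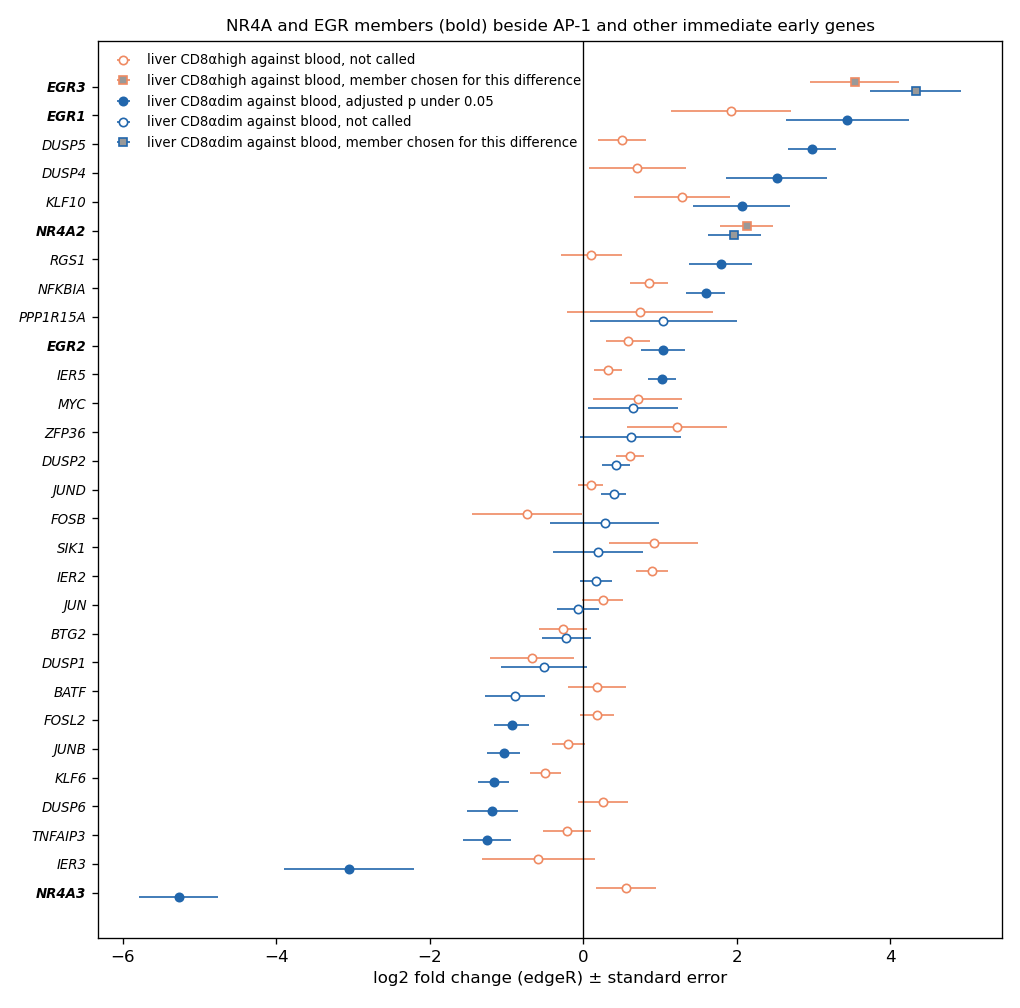
Log2 fold change with its standard error (x axis) of the 5 tested members (bold), 6 AP-1 genes and 18 other immediate early genes, ordered by the change in lrNK (liver CD8αdim) cells against blood; filled circles passed an adjusted p of 0.05, open circles did not, and squares mark the members chosen for this difference. NR4A3 lies at the low end in lrNK cells with -5.27, below IER3 with -3.05, and at 0.56 in liver CD8αhigh cells.

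Of 16 genes tied in lymphocytes to restraint of activation, or reported as targets of these factors, 13 passed the filter. In lrNK cells against blood 4 rose and 1 fell, and against liver CD8αhigh cells 4 rose and 0 fell by edgeR. The shares over all genes were 8.62% higher and 9.60% lower in the first comparison and 6.96% and 7.68% in the second. In the first comparison 5 were higher and 4 lower at an unadjusted p under 0.05, and the block by pig gave 4 higher and 2 lower. The fall was that of ITCH, a ubiquitin ligase gene (log2 fold change -0.57, SE 0.18, adjusted p = 0.0289), whose call was lost in 11 of 28 alternative settings (adjusted p up to 0.168, without pig 1). In the second comparison DESeq2 called 1 lower, 5 were lower at an unadjusted p under 0.05, and with the pig as a block 2 were called lower. TOX2, a relative of the exhaustion factor TOX, rose from 3.86 to 156 CPM against blood (log2 fold change 5.33, SE 0.62, adjusted p = 1.96e-06). ID3, an inhibitor of E proteins induced by EGR1, rose from 3.43 to 68.7 CPM (log2 fold change 4.30, SE 0.72, adjusted p = 1.85e-04). CBLB, a ubiquitin ligase gene induced by EGR2 and EGR3 in unresponsive T cells, rose from 210.5 to 666 CPM (1.66, SE 0.18, adjusted p = 9.94e-07). TNFSF10, which encodes TRAIL, rose from 143 to 350 CPM (1.29, SE 0.23, adjusted p = 3.91e-04). Its call against liver CD8αhigh cells was lost in 12 of 28 alternative settings (adjusted p up to 0.134, without pig 1). Each of these 4 was higher in 5 of 5 pigs, while the median of the 13 was -0.18 beside 0.01 over all genes. Comparing liver CD8αhigh cells with blood, 0 were called by edgeR or by DESeq2, and 3 were higher at an unadjusted p under 0.05.

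Heat shock genes respond to the handling of cells as well as to their state. Their summed level over 10 genes was 2875 to 3859 CPM in blood, 3800 to 7870 CPM in liver CD8αhigh and 4161 to 6960 CPM in lrNK libraries. HSPA8, a constitutive chaperone, averaged 636, 1413 and 1380 CPM and rose in both liver populations against blood, by 1.15 (SE 0.19, edgeR adjusted p = 0.0103) and 1.12 (SE 0.19, adjusted p = 2.07e-04) on the log2 scale. The first of these calls was lost in 8 of 28 alternative settings (adjusted p up to 0.105, without pig 3). Of the 10 genes 1 rose in liver CD8αhigh cells and 4 rose in lrNK cells (6 with the pig as a block, 2 without pig 3 or its blood library, 7 without the liver CD8αhigh library of pig 2), with medians of 0.76 and 0.83 beside -0.02 and 0.01 over all genes, of which 0.0457% and 8.62% were called higher. DESeq2 called 2 higher and 6 higher in these comparisons, and 6 and 7 were higher at an unadjusted p under 0.05. Between the liver populations edgeR called 0 of the 10 and DESeq2 called 1 higher and 1 lower, as did an unadjusted p under 0.05, and 1 was called lower with the pig as a block. The part of heat shock genes in the levels of the members was not tested.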

How the data were processed

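RNA of 3 sorted NK cell populations from 5 pigs was sequenced from the 3′ end (15 libraries). The authors trimmed the reads with QuasR, aligned them with HISAT2 to Sscrofa11.1 and deposited raw, unnormalized counts of reads per gene. Which tool counted them, whether strand was used and how reads that aligned more than once were treated is not given in the sources used here. Library totals of 2003499 to 5680221 counts limit the precision of genes with few reads.

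Counts were fitted in R 4.3.3 with edgeR 4.0.16: TMM scaling, its filterByExpr filter with population as group (10939 of 29886 genes kept), 1 quasi-likelihood fit of all 15 libraries, and p-values adjusted by Benjamini-Hochberg across those genes. Standard errors are the log2 fold change divided by the square root of F. CPM are counts divided by the TMM-scaled library total, on the usual CPM scale. Libraries share a pig according to the labels. The deviations of libraries of one pig from their population means correlated on average by 0.107, and those of different pigs by -0.0265, and a fit with the pig as a block was an alternative. Other alternatives were DESeq2 1.42.0, other scalings and filters, robust dispersion, a fit of 2 populations only and leaving out pigs or libraries. On simulated counts for liver CD8αhigh against blood (10629 genes tested), 92 of 200 changed genes were recovered with 2 false calls.

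The members and gene lists were chosen with earlier results of these data known. Named are the members, all genes of their partner lists, up to 4 called genes per list in order of the size of their change from blood, and for each member the 3 genes most like it, of which some results are not reported here. SRF, ADO, ITCH, FOS and marker genes are named in addition, chosen after their values were seen. Coordinates come from the RefSeq table of Sscrofa11.1, which matched 29862 genes and gives no strand. Python 3.11.15 with matplotlib 3.10.9 drew the figures.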

Additional observations from a re-analysis of the deposited data

Results flagged for a closer look

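NR4A3 changed from blood in different ways in the liver populations. Its log2 fold change against blood was -5.27 in lrNK cells and 0.56 in liver CD8αhigh cells, and the difference of these changes, which equals the direct comparison of lrNK with liver CD8αhigh cells because the blood libraries are shared, was -5.83 (SE 0.52, edgeR quasi-likelihood test, adjusted p = 6.82e-08). Each of the 5 pigs showed the fall in lrNK cells, and each had a higher level in liver CD8αhigh cells than in blood. Over all 28 alternative settings of the edgeR and DESeq2 fits the difference within the liver ran from -6.44 to -5.36. No library stood apart from the other 4 of its population in the level of a member by Dixon's test.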

How the results depend on the processing

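The number of genes that differed between liver CD8αhigh and blood NK cells was small and moved with the settings: 7 as reported, 22 with DESeq2, 18 without the filter on low counts, 16 in a fit of the 2 populations only, 4 with robust dispersion and 0 to 12 when pigs or libraries were left out. Of the members, 2 were called there, 0 with robust dispersion and 0 to 2 when pigs or libraries were left out, and these are the genes chosen for that difference, so nothing is read from the count. For lrNK cells against blood the number was 1993 and ran from 1472 to 2301 when pigs or libraries were left out, with 4 to 5 members called, the chosen genes among them. For lrNK against liver CD8αhigh cells it was 1601 and ran from 1051 to 1764, with 1 member called throughout. With the pig as a block the 3 counts of genes were 8, 2120 and 1716, and the block changed the call of no member. NR4A2 in lrNK against liver CD8αhigh cells turned from -0.16 to 0.0029 on the log2 scale (adjusted p = 0.998) without the lrNK library of pig 3, within a range of -0.34 to 0.0029 when pigs or libraries were left out. The causes of these shifts were not tested. NR4A3 and EGR1 kept their calls in lrNK cells against blood in all 28 settings, with log2 fold changes of -5.86 to -4.87 and 3.08 to 4.25. EGR1 in lrNK against liver CD8αhigh cells had an unadjusted p of 0.0159 in an exact permutation test of log2 CPM and of 0.0464 in edgeR. Its adjusted p ran from 0.107 to 0.501 over 28 settings of the edgeR and DESeq2 fits. Depth limits EGR1 and EGR3 in blood, with 0 to 24 reads per library, and NR4A3 in lrNK cells, with 0 to 23.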

Other observations

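Across the 15 libraries, 8115 genes with a mean of at least 10 CPM were compared with each member by Pearson's r of log2 CPM. The genes most like NR4A3 were DOCK5 (r = 0.974), CD226 (0.974), which encodes the activating receptor DNAM-1, and RFX2 (0.967). Among the genes most like NR4A2 were CEP152 (0.824) and HELLS (0.815), and among those most like EGR3 were ASCC3 (0.895) and KLHL28 (0.877). UNC13D (0.895), DIXDC1 (0.887) and CKAP2L (0.884) were most like EGR1, and TNFSF10 (0.893), SMARCAD1 (0.893) and PARP14 (0.888) most like EGR2. These libraries share pigs and fall into 3 populations, so the values mostly describe how levels differ between populations.

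With each population's mean subtracted, other genes led: SMAGP (r = 0.890), DAZAP2 (0.884) and PLEKHO1 (0.843) for NR4A2, RNPC3 (0.931), PEX19 (0.900) and TRAPPC12 (0.895) for NR4A3, and SETD2 (0.834), TRAF5 (0.833) and LOC110257430 (0.790) for EGR3. For EGR1 they were RMDN3 (0.867), UNC13D (0.827) and AP1M1 (0.816), with UNC13D among the 3 both ways, and for EGR2 ZNF260 (0.878), ZBTB33 (0.878) and RBL2 (0.856). These are the 3 highest of 8115 values for each member, over 15 libraries, and are given without a test. Among the members, the pairs without NR4A3 had positive r over all libraries and lower r after subtraction of the population means: 0.767 and 0.060 for NR4A2 and EGR3, 0.738 and 0.261 for EGR1 and EGR3, 0.725 and 0.287 for EGR2 and EGR3, 0.660 and 0.347 for NR4A2 and EGR1, 0.534 and -0.098 for EGR1 and EGR2, and 0.513 and -0.120 for NR4A2 and EGR2. NR4A2 and EGR3 were both chosen for higher levels in liver than in blood, so their positive r over all libraries was built in by the choice. The pairs with NR4A3 had negative r over all libraries and higher r after subtraction: -0.295 and -0.159 with NR4A2, -0.600 and 0.065 with EGR1, -0.474 and 0.229 with EGR2, and -0.449 and 0.308 with EGR3.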
